A study of Homo sapiens with 8 samples.

Results

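The glycolysis and pyruvate control genes described here are 33 genes that carry glucose into the cell, split it into pyruvate, turn pyruvate into lactate and export it, or decide whether pyruvate enters mitochondria. They were named by symbol from their known roles, with earlier results of these data known. Each of the 33 symbols matched 1 Ensembl identifier among the 58688 genes of the count files. The cells were LM2, a derivative of the human triple-negative breast cancer line MDA-MB-231 that was selected for metastasis to lung, cultured in DMEM with serum. RNA sequencing compared LM2 cells given Ponatinib, a small-molecule inhibitor of ABL and several other tyrosine kinases, at 1 µmol/L for 6 h with cells given its solvent DMSO (2 samples each). It also compared LM2 cells carrying ABL1 shRNA, ABL2 shRNA or ABL1/ABL2 shRNA with cells carrying scrambled shRNA (shCtrl), with 1 sample for each of these 4 lentivirus-infected stable lines. Short hairpin RNAs (shRNAs) are cut into small RNAs that destroy the matching mRNA. All cells of both experiments were the same line, so the results describe 1 tumour cell line in culture. The questions addressed were which of these genes moved with Ponatinib, whose targets go beyond ABL, and which when ABL1, ABL2 or both were silenced.

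Glycolysis starts when glucose carriers of the SLC2A family let glucose in and hexokinases trap it as glucose 6-phosphate. Its committed step is made by phosphofructokinase-1, which is switched on by fructose 2,6-bisphosphate, a regulator that the PFKFB enzymes make and that TIGAR breaks down. Pyruvate is then reduced to lactate and exported by the SLC16A carriers, or oxidised by pyruvate dehydrogenase, which the PDK kinases turn off. The alpha-arrestins TXNIP and ARRDC4 act as brakes on glucose uptake, and many tumours, basal-like breast cancers among them, run glycolysis fast even where oxygen is present.

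Counts on genes summed to between 7568934 and 13010896 per sample, and 3 counts corresponded to 0.396 CPM in the shallowest sample, Ponatinib replicate 2. CPM here means counts scaled to the sample's TMM-adjusted library size, set separately within each experiment of 4 samples. Levels are therefore not directly comparable across the experiments, and no test was made across them. In the order shCtrl, ABL1 shRNA, ABL2 shRNA and ABL1/ABL2 shRNA, ABL1 stood at 189.7, 72.8, 203 and 109 CPM and ABL2 at 236, 213, 93.5 and 148 CPM, so each shRNA sample had less of the mRNA named in its label and the double line kept more of both than the single lines. Header text within the deposited tables of shCtrl and ABL1 shRNA is swapped between these conditions, and GEO's sample labels were followed. In the Ponatinib experiment, ABL2 mRNA was lower with the drug, at 147 and 169 CPM against 334 and 305 CPM with DMSO. ABL1 measured 182 and 193 CPM with Ponatinib and 165 and 162 CPM with DMSO. What part the lower ABL2 mRNA had in the Ponatinib results was not tested. VIM, CD44, AXL and KRT18, markers of MDA-MB-231 cells, were present in all 8 samples. Of genes expected absent or low, PGR was at 0, ESR1 and CDH1 stayed at or below 1.77 CPM and EPCAM ran from 5.01 to 11.9 CPM. ERBB2, listed beforehand as low in this line, ran higher than these, from 53.6 to 66.8 CPM. Among 6 markers of leukocytes, endothelium, erythrocytes and hepatocytes, 5 stayed at or below 0.264 CPM. The exception was PECAM1, at 2.34 to 3.98 CPM in the DMSO and Ponatinib samples and at 20.5, 30.7, 39.6 and 32.3 CPM in the shRNA samples in the same order, and its part in the knockdown results was not tested. The summed level of these markers ran from 2.74 to 4.04 CPM with DMSO, from 2.86 to 4.17 CPM with Ponatinib and from 20.9 CPM in shCtrl to 39.8 CPM with ABL2 shRNA.

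Together the 33 members took 1.59% of all gene counts in DMSO replicate 1 (95% exact [Clopper-Pearson] interval 1.58 to 1.60) and 1.59% in replicate 2 (1.58 to 1.59). In the Ponatinib replicates they took 1.57% (1.56 to 1.57) and 1.47% (1.46 to 1.48). Per kilobase of annotated exon, the DMSO levels ran from 1015 ± 9.13 CPM per kilobase for GAPDH (SD, n = 2), the dehydrogenase of glyceraldehyde 3-phosphate, to 0.198 ± 0.035 for the kinase gene PDK3. ENO1 followed GAPDH at 477 ± 2.04 CPM per kilobase and PKM at 416 ± 3.74. These neighbours differed by more than their spread, which holds no error of the length. The union of exons is 5216 bases for ENO1 and 8572 for PKM, against 2548 and 3016 in their longest transcripts. The order of ENO1 and PKM therefore depends on the length used, and PKM leads ENO1 by the longest transcript. The regulators stood much lower, with PFKFB3 at 20.3 ± 0.296, TXNIP at 13.1 ± 1.47 and HK2 at 11.0 ± 0.176 CPM per kilobase. GPI and SLC16A3 (27.5 ± 0.709 and 26.7 ± 0.282), TXNIP and PDHA1 (12.9 ± 0.123) and PFKL and HK2 (11.6 ± 0.895 for PFKL) were pairs of neighbours that did not differ beyond their spread.

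With Ponatinib, the hexokinase HK2, the regulator PFKFB3, the lactate exporter SLC16A3 and the glucose carrier SLC2A1 fell, and the uptake brake TXNIP, the kinase PDK4 and the scarce carrier SLC16A1 rose, while GAPDH, LDHA, LDHB, PKM, PGK1 and GPI did not pass the test. In edgeR's quasi-likelihood test, adjusted over 16031 genes by the Benjamini-Hochberg method, 14 of the 33 members (42.4%) had an adjusted p under 0.05, against 30.7% of all genes tested. Of these, 5 rose (15.2% of the members, against 15.0% of all genes) and 9 fell (27.3% against 15.7%). All 33 members passed the filter on low counts. The members were chosen with earlier results of these data known, so these shares do not test the set. The median log2 fold change was -0.06 over the members and -0.0047 over all genes, and the median absolute log2 fold change was 0.20 and 0.23. The groups of 2 did not overlap for 24 of the 33 members, whereas 64.9% of all genes had groups that did not overlap. Under the thresholds of the study, a fold over 2 with an unadjusted P under 0.05, there were 4 members (12.1%, against 5.48% of all genes), with HK2 falling (2.29% of all genes) and SLC16A1, PDK4 and TXNIP rising (3.19% of all genes). The labels do not say that the 2 samples of a group came from separate cultures, so the p-values measure the spread between these samples, which may be technical. In such bulk samples, fewer cells of a type and less RNA per cell cannot be told apart. The count of 14 fell to 8 without DMSO replicate 1 and to 9 without DMSO replicate 2, and was 17 without Ponatinib replicate 2 and 19 without Ponatinib replicate 1. Of these, 3 rose and 5 fell without DMSO replicate 1, 5 fell without DMSO replicate 2 and 14 fell without Ponatinib replicate 1.

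**Figure D1:**
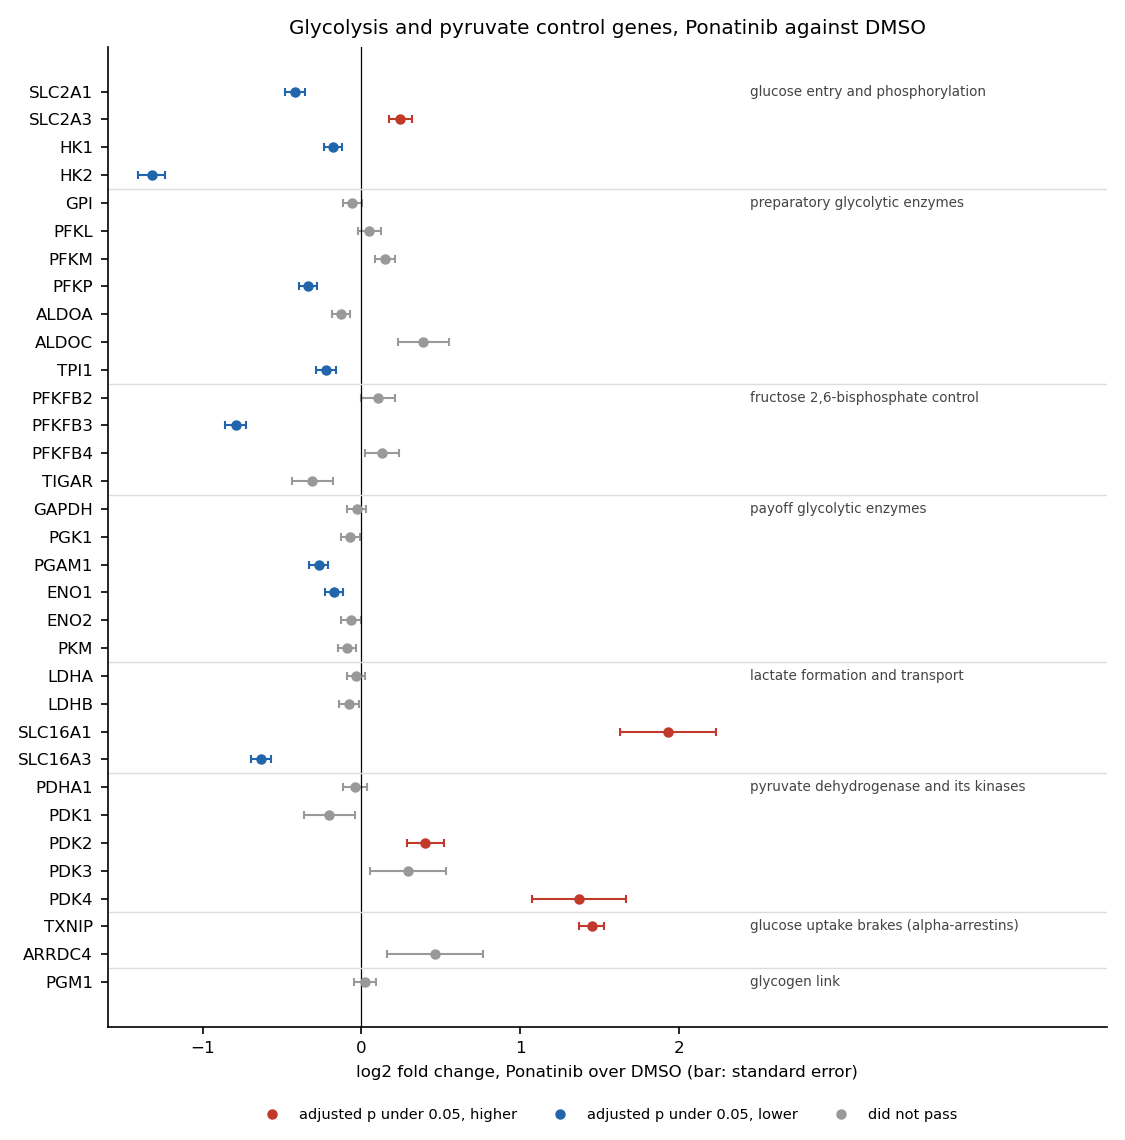
Log2 fold change of each of the 33 members, Ponatinib over DMSO, on the x axis, with bars of 1 standard error from edgeR and genes grouped by role. HK2 lies farthest to the left at -1.32 and SLC16A1 farthest to the right at 1.93, while most enzymes of the lower pathway sit close to 0.

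All 4 genes of glucose entry and phosphorylation passed the test, 3 downwards and 1 upwards. HK2 codes for hexokinase 2, the inducible hexokinase that many tumours use, and lies on chromosome 2 from 74834127 to 74893359 of GRCh38 (ENSG00000159399). The 250 bases before its start are shown because HK2 fell farthest of the members. The sequence is from RefSeq, GRCh38.p14, chr2:74833877-74834126, plus strand, and the capitals mark the ACGTG core of the hypoxia response element read on the other strand, 229 and 48 bases before the start.
HK2: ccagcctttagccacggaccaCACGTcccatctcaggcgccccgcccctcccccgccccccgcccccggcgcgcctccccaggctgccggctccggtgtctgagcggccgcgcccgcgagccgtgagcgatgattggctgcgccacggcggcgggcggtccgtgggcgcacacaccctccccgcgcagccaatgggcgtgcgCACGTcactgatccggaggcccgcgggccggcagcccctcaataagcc

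HK2 measured 66.1 and 64.7 CPM in the DMSO samples and 24.9 and 27.6 CPM in the Ponatinib samples. Both Ponatinib samples lay far below both DMSO samples. The log2 fold change was -1.32 (standard error [SE] 0.09, adjusted p = 2.7e-08 in edgeR), from a mean of 65.4 ± 1.04 to 26.3 ± 1.92 CPM (SD, n = 2 each), and it stayed between -1.39 and -1.23 when any 1 sample was left out. HK1, the housekeeping hexokinase, had 433 and 413 CPM with DMSO and 376 and 372 CPM with Ponatinib. The groups did not overlap, but the difference was small, with a log2 fold change of -0.18 (SE 0.06, adjusted p = 0.032 in edgeR). Its call was lost without DMSO replicate 1 (adjusted p = 0.387) or replicate 2 (adjusted p = 0.161) in edgeR, where the lone DMSO sample is assumed to vary like the Ponatinib pair, and by DESeq2's Wald test (adjusted p = 0.0717).

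SLC2A1, the basal glucose carrier GLUT1 (chromosome 1, 42925353 to 42958893), measured 269 and 263 CPM with DMSO and 193 and 205 CPM with Ponatinib. The Ponatinib samples were lower by more than the spread within either pair. Its log2 fold change was -0.42 (SE 0.06, adjusted p = 1.1e-04 in edgeR). SLC2A3, which codes for the high-affinity carrier GLUT3, went the other way, from 61.5 and 65.5 CPM to 74.6 and 75.8 CPM, a log2 fold change of 0.25 (SE 0.07, adjusted p = 0.018 in edgeR). The groups did not overlap. Without DMSO replicate 1 the edgeR adjusted p for SLC2A3 was 0.259, without replicate 2 it was 0.0746, and by DESeq2's Wald test it was 0.118.

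Among the 7 preparatory enzymes, which use ATP to turn glucose 6-phosphate into triose phosphates, 2 fell and 5 did not pass. PFKP, the platelet-type phosphofructokinase-1, measured 338 and 328 CPM with DMSO and 267 and 261 CPM with Ponatinib, and the groups did not overlap. Its log2 fold change was -0.34 (SE 0.06, adjusted p = 5.2e-04 in edgeR). TPI1, which interconverts the triose phosphates, measured 809 and 777 CPM with DMSO and 716 and 639.8 CPM with Ponatinib, again without overlap. Its log2 fold change was -0.23 (SE 0.06, adjusted p = 0.015 in edgeR), and the adjusted p was 0.213 without DMSO replicate 1 and 0.0759 without replicate 2. The muscle and liver subunits PFKM and PFKL had log2 fold changes of 0.15 (adjusted p = 0.100) and 0.05 (adjusted p = 0.655). ALDOA, the main aldolase here, measured 885 and 907 CPM with DMSO and 825 and 814 CPM with Ponatinib, groups that did not overlap, with a log2 fold change of -0.13 (adjusted p = 0.096 in edgeR). It passed the test without Ponatinib replicate 1 (adjusted p = 0.013) or replicate 2 (adjusted p = 0.018), and so did PFKM (adjusted p = 0.017) and the brain-type aldolase ALDOC (adjusted p = 0.002, log2 fold change 0.56 against 0.39) without replicate 2. By annotation, 54.2% of the exon bases of ALDOA overlap exons of other genes, and reads counted there may have been dropped or assigned to either gene. GPI, the isomerase that follows hexokinase, had a log2 fold change of -0.06 (adjusted p = 0.503).

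PFKFB3 alone passed the test among the 4 genes that set fructose 2,6-bisphosphate. It codes for the PFKFB isozyme whose kinase activity most outweighs its phosphatase activity, and lies on chromosome 10 from 6144934 to 6254644. PFKFB3 measured 125 and 123 CPM with DMSO and 71.5 and 71.7 CPM with Ponatinib. The pairs were tight and far apart, with means of 123.9 ± 1.81 and 71.6 ± 0.115 CPM (SD, n = 2 each). The log2 fold change was -0.79 (SE 0.07, adjusted p = 3.8e-07 in edgeR) and ranged from -0.81 to -0.78 over the fits that left out 1 sample. PFKFB2 and PFKFB4 had log2 fold changes of 0.11 (adjusted p = 0.5) and 0.13 (adjusted p = 0.399), and their groups overlapped. TIGAR, the fructose bisphosphatase induced by p53, had one of -0.31 (SE 0.13, adjusted p = 0.082), which became -0.48 with an edgeR adjusted p of 0.0088 without Ponatinib replicate 1.

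The payoff enzymes, which recover ATP and end in pyruvate, moved little. PGAM1, phosphoglycerate mutase, measured 409 and 417 CPM with DMSO and 355 and 329 CPM with Ponatinib, without overlap, a log2 fold change of -0.27 (SE 0.06, adjusted p = 0.0038 in edgeR). ENO1, the main enolase, measured 2495 and 2480.2 CPM with DMSO and 2282 and 2124 CPM with Ponatinib, also without overlap, a log2 fold change of -0.17 (SE 0.06, adjusted p = 0.029 in edgeR). Without DMSO replicate 1 or replicate 2 the edgeR adjusted p was 0.0573 or 0.0835 for PGAM1 and 0.252 or 0.197 for ENO1. GAPDH measured 2448 and 2417 CPM with DMSO and 2521 and 2241 CPM with Ponatinib. The Ponatinib samples fell on either side of the DMSO pair, and the log2 fold change was -0.03 (SE 0.06, adjusted p = 0.753 in edgeR), with values from -0.11 to 0.05 when 1 sample was left out. PKM, pyruvate kinase, measured 3540.0 and 3585 CPM against 3456 and 3223 CPM, with a log2 fold change of -0.09 (adjusted p = 0.230 in edgeR), and PGK1 and ENO2 had ones of -0.07 (adjusted p = 0.401 and 0.483). Without Ponatinib replicate 1, GAPDH (adjusted p = 0.025) and PKM (adjusted p = 0.0031) passed the test downwards.

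Lactate formation and lactate export behaved differently. LDHA, the subunit of lactate dehydrogenase known from muscle, measured 1468 and 1489 CPM with DMSO and 1486 and 1405 CPM with Ponatinib, a log2 fold change of -0.03 (SE 0.06, adjusted p = 0.713 in edgeR). LDHB, the subunit known from heart, measured 977 and 942 CPM with DMSO and 954 and 862 CPM with Ponatinib, a log2 fold change of -0.08 (SE 0.06, adjusted p = 0.372 in edgeR). The groups overlapped for both. LDHB passed the test downwards without Ponatinib replicate 1 (adjusted p = 0.0040, log2 fold change -0.14). SLC16A3 codes for MCT4, the low-affinity carrier that exports lactate from glycolytic cells, and lies on chromosome 17 from 82217934 to 82261129. It measured 245 and 249 CPM with DMSO and 167 and 151 CPM with Ponatinib, and both Ponatinib samples were below both DMSO samples. Its log2 fold change was -0.63 (SE 0.07, adjusted p = 3.5e-06 in edgeR), from 246.7 ± 2.60 to 158.6 ± 11.2 CPM (SD, n = 2 each). SLC16A1 codes for MCT1, the carrier of higher affinity, on chromosome 1 from 112911847 to 112957593. It measured 1.32 and 1.72 CPM with DMSO (15 and 17 counts) and 4.65 and 7.27 CPM with Ponatinib (49 and 56 counts), so both Ponatinib samples were above both DMSO samples at a very low level. The log2 fold change was 1.93 (SE 0.30, adjusted p = 2.0e-04 in edgeR), and SLC16A1 still made up 5.23 ± 1.88% of the 2 carriers with Ponatinib, per kilobase of exon, against 0.89 ± 0.15% with DMSO (SD, n = 2 each).

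Pyruvate dehydrogenase and its kinases moved upwards where they passed. PDK4 is the kinase known for its induction in fasting, on chromosome 7 from 95583499 to 95596516. It measured 2.74 and 1.62 CPM with DMSO (31 and 16 counts) and 4.65 and 7.14 CPM with Ponatinib (49 and 55 counts), and the groups did not overlap although each pair was spread widely. Its log2 fold change was 1.37 (SE 0.30, adjusted p = 0.0026 in edgeR), from 2.18 ± 0.792 to 5.89 ± 1.76 CPM (SD, n = 2 each), with a range of 1.06 to 1.82 when 1 sample was left out. PDK2, the most widely expressed of the kinases, measured 18.3 and 20.9 CPM with DMSO and 24.7 and 27.1 CPM with Ponatinib, without overlap, a log2 fold change of 0.40 (SE 0.12, adjusted p = 0.015 in edgeR). The call for PDK2 was lost without DMSO replicate 1 (adjusted p = 0.197) and by DESeq2's Wald test (adjusted p = 0.108), and 38.6% of its exon bases overlap SAMD14 on the opposite strand. PDK1, a kinase induced in hypoxia, measured 12.8 and 16.5 CPM with DMSO and 11.6 and 14.0 CPM with Ponatinib, groups that overlapped, with a log2 fold change of -0.20 (adjusted p = 0.370 in edgeR). PDK3 had one of 0.29 (adjusted p = 0.389), and PDHA1, the catalytic subunit that these kinases phosphorylate, one of -0.04 (adjusted p = 0.743).

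TXNIP, thioredoxin-interacting protein, rose with the smallest adjusted p of the members. It lies on chromosome 1 from 145992435 to 145996579 (ENSG00000265972), and ARRDC4, its closest relative, on chromosome 15 from 97960703 to 97973833 (ENSG00000140450). Both are known targets of MondoA (MLXIP) and ChREBP (MLXIPL), which pair with MLX, sense glucose 6-phosphate and bind paired E-boxes. The 250 bases before each start are shown because TXNIP differed in both experiments and ARRDC4 in the shRNA experiment. They are from RefSeq, GRCh38.p14, chr1:145996580-145996829 on the minus strand for TXNIP and chr15:97960453-97960702 on the plus strand for ARRDC4. Capitals mark a pair of CACGNG motifs set 5 bases apart, which begins 88 bases before the start of TXNIP, and CACGTG, 210 bases before the start of ARRDC4.
TXNIP: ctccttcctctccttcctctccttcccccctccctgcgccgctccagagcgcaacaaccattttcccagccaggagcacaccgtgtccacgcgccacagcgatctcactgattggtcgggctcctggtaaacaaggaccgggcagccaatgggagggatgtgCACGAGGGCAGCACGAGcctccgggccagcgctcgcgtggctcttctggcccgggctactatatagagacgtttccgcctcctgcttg
ARRDC4: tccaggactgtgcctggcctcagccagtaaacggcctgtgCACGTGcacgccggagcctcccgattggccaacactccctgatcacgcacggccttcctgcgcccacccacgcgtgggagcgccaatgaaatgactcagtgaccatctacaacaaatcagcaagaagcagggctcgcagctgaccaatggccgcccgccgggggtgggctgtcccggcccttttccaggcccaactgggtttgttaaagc

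TXNIP measured 50.9 and 43.4 CPM with DMSO and 130.0 and 129 CPM with Ponatinib. Both Ponatinib samples were far above both DMSO samples. The log2 fold change was 1.45 (SE 0.08, adjusted p = 3.2e-09 in edgeR), from 47.2 ± 5.31 to 129.4 ± 0.866 CPM (SD, n = 2 each), and it ranged from 1.35 to 1.57 when 1 sample was left out. ARRDC4 was scarce, at 1.77 and 1.72 CPM with DMSO and 2.37 and 2.47 CPM with Ponatinib. Its groups did not overlap, but the log2 fold change of 0.47 (SE 0.30) had an edgeR adjusted p of 0.271 on 17 to 25 counts per sample. PGM1, which links glycogen to glycolysis, had a log2 fold change of 0.02 (adjusted p = 0.828).

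**Figure D2:**
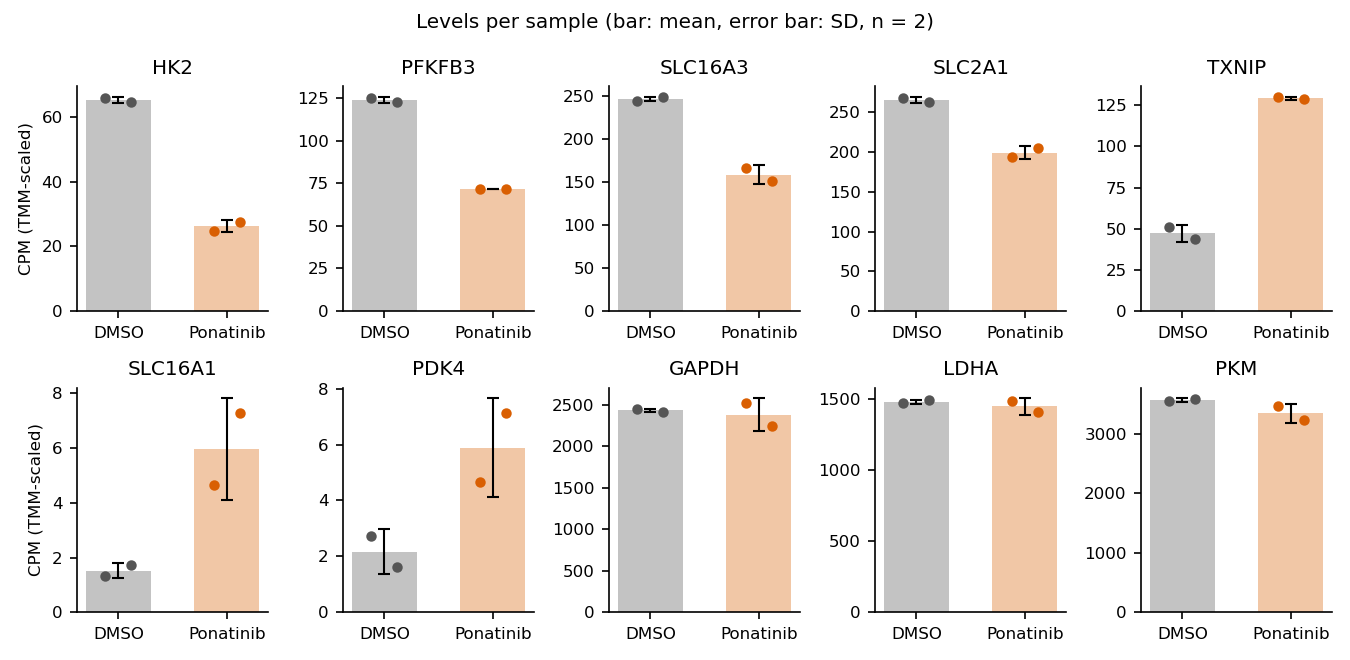
TMM-scaled CPM of 10 members in the DMSO and Ponatinib samples, with points for the samples, bars for the mean and error bars for the SD (n = 2), each panel on its own axis from 0. HK2, PFKFB3, SLC16A3 and SLC2A1 were lower in both Ponatinib samples and TXNIP, SLC16A1 and PDK4 higher, while the GAPDH and LDHA samples overlapped.

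Of the 33 members, 30 matched a RefSeq promoter window of 250 bases before to 50 after a start, with 61 windows in all. On either strand, CACGTG, the E-box, was found in 8 of these 30 genes (26.7%) and in 8.77% of the 27305 genes with a window, and ACGTG, which every CACGTG also holds, in 20 of 30 (66.7%) and in 24.9%. Members with several windows have more chances of a match, and by window the shares were 13.1% of 61 against 7.26% of 35116 for CACGTG and 39.3% against 21.4% for ACGTG. The 8 genes with CACGTG were ALDOA, ALDOC, ARRDC4, GAPDH, HK2, LDHA, PDK2 and PFKFB3. Among them HK2 and PFKFB3 fell with Ponatinib, PDK2 rose and 5 did not pass the test. The CACGTG of HK2 is not within the 250 bases printed above for that gene. A pair of CACGTG motifs with 5 bases between them was in 0 member windows and in 2 of all windows. The looser pair of CACGNG motifs with 5 bases between them, a search added after the TXNIP window had been read, was in 20 of all 35116 windows, TXNIP being the 1 member with it.

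The isozymes that supplied each step mostly kept their order. Of 9 steps with several isozymes among the members, 7 had the same most abundant isozyme per kilobase of exon in all 8 samples, namely SLC2A1, HK1, PFKP, PFKFB3, ALDOA, ENO1 and SLC16A3. Within that order, the shares at several steps differed between the DMSO and Ponatinib samples. HK2 made up 15.2 ± 0.22% of HK1 and HK2 with DMSO and 7.56 ± 0.56% with Ponatinib (SD, n = 2 each), so HK1, which itself fell by less, went from 84.8 ± 0.22% to 92.4 ± 0.56%. PFKFB3 made up 75.5 ± 0.31% of the PFKFB kinases with DMSO and 62.2 ± 1.04% with Ponatinib. SLC2A3 made up 17.9 ± 0.86% of the 2 glucose carriers with DMSO and 25.6 ± 0.60% with Ponatinib. None of these shares overlapped between the groups, and they were not tested separately from the counts. The top isozyme of lactate dehydrogenase depended on the length used, LDHB leading in the DMSO and Ponatinib samples by the union of exons (56.7 ± 0.88% with DMSO) and LDHA in all samples by the longest transcript. The top PDK was PDK2 in 7 of 8 samples by the union of exons, with PDK1 leading in the ABL1 shRNA sample, and PDK2 in all by the longest transcript.

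**Figure D3:**
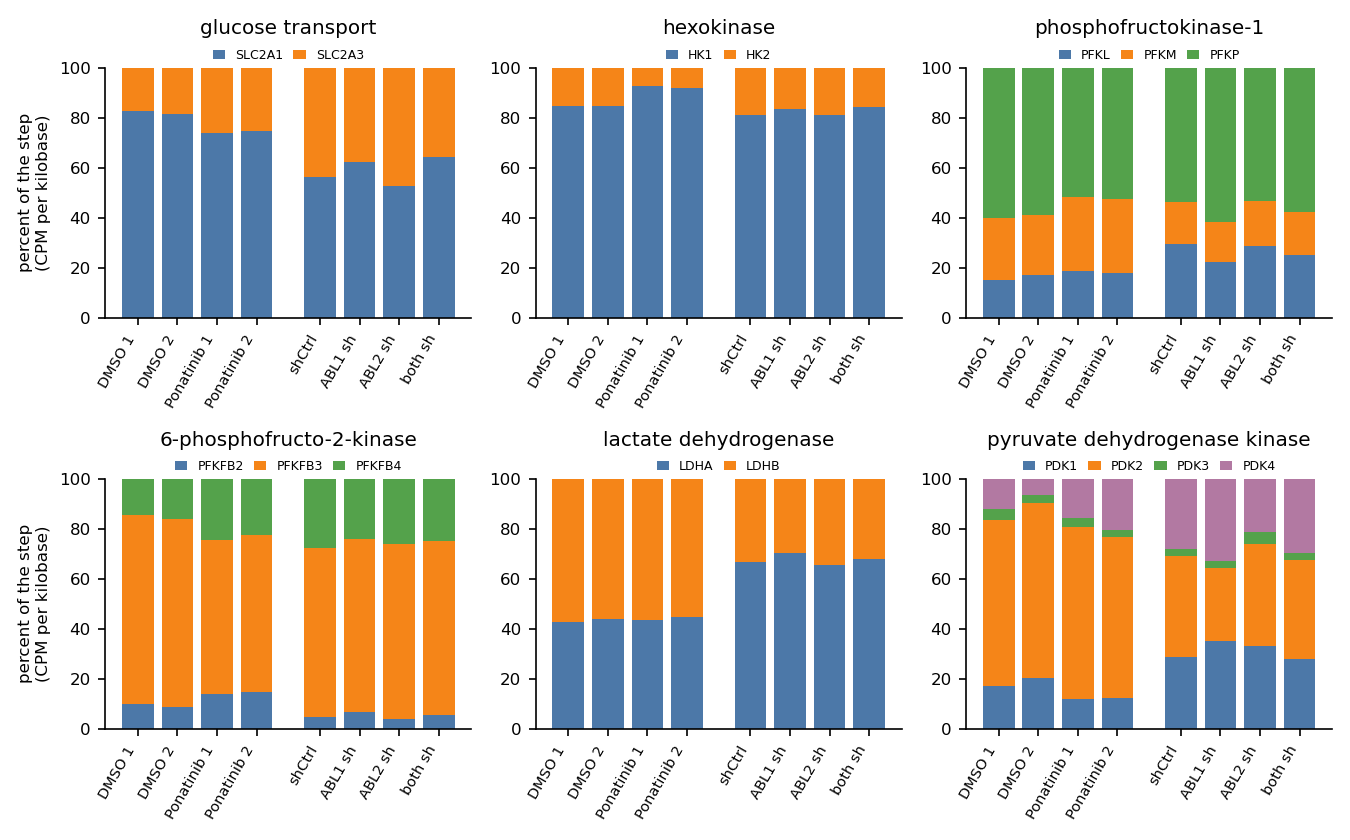
Share of each isozyme, in percent of its step, from CPM per kilobase of annotated exon in the 8 samples, with "both sh" standing for ABL1/ABL2 shRNA and the 2 experiments set apart by a gap. HK2 takes less of the hexokinase step in both Ponatinib samples than in both DMSO samples, 7.56% against 15.2% on average, and PFKFB3 less of its own step.

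Among 93 related genes in 6 lists, 79 were tested. Of these, 24 rose (30.4%) and 11 fell (13.9%) with Ponatinib, beside 15.0% and 15.7% of all genes. The lists were chosen with earlier results of these data known, so their shares do not test them. In the controllers of glucose genes, 7 of 17 rose (41.2%) and 4 fell (23.5%). HIF1A, the oxygen-regulated subunit of the hypoxia factor HIF-1, measured 444 and 458 CPM with DMSO and 689 and 734 CPM with Ponatinib (log2 fold change 0.66, edgeR adjusted p = 8.3e-07), and EPAS1, the corresponding subunit of HIF-2, and their partner ARNT rose too (log2 fold changes 0.82 and 0.50). MYC, an activator of many glycolytic genes, measured 170.4 and 178 CPM with DMSO and 96.2 and 97.4 CPM with Ponatinib (log2 fold change -0.85, edgeR adjusted p = 1.5e-07), and its partner MAX (log2 fold change -0.23) and MLX (log2 fold change -0.46) fell as well. The groups overlapped for none of these. MLXIP and MLXIPL, the partners of MLX, did not pass the test in edgeR. MLXIP had a log2 fold change of -0.06 (adjusted p = 0.617) with overlapping groups. MLXIPL had one of 0.92 (adjusted p = 0.0515) on 12 to 23 counts per sample. VHL and NR3C1 also rose (log2 fold changes 0.33 and 0.52), and ESRRA fell (-0.52). PPARGC1A, a coactivator of mitochondrial and PDK4 transcription, rose from 7.59 and 8.08 CPM to 32.5 and 34.1 CPM (log2 fold change 2.09, edgeR adjusted p = 8.5e-09), and FOXO1, a factor held out of the nucleus by insulin signalling, had a log2 fold change of 1.04 (adjusted p = 1.3e-04).

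HIF targets outside glycolysis rose in 7 (36.8%) and fell in 2 (10.5%) of 19 tested genes, beside 15.0% and 15.7% of all genes. The other 10 did not pass, among them BNIP3, BNIP3L, P4HA1 and ERO1A (log2 fold changes -0.07, 0.05, 0.02 and -0.07). DDIT4, an inhibitor of mTORC1 that is also induced by other stresses, measured 57.0 and 69.5 CPM with DMSO and 469 and 475 CPM with Ponatinib, groups that lay far apart (log2 fold change 2.90, edgeR adjusted p = 4.8e-12). LOX, lysyl oxidase, had a log2 fold change of 1.51 and EGLN3, a prolyl hydroxylase that marks HIF for decay, one of 1.08 (adjusted p = 9.0e-10 and 0.0056). ADM, the vasodilator adrenomedullin, fell with a log2 fold change of -0.55 and NDRG1 with one of -0.38 (adjusted p = 3.2e-05 and 7.1e-04).

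The counts of the remaining lists stand beside 15.0% rising and 15.7% falling of all genes. A list of other isozymes and relatives by name or partnership, not all of which catalyse the same steps, had 26 genes. Of its 13 tested genes, 3 rose and 1 fell (PGAM5, log2 fold change -0.66). SLC2A12, a glucose carrier, had a log2 fold change of 1.21 (adjusted p = 2.2e-04) and LDHD, the mitochondrial D-lactate dehydrogenase, one of 1.52 at under 2 CPM (adjusted p = 0.0091). Of 11 genes of the pyruvate dehydrogenase complex, its phosphatases and pyruvate carriers, 2 rose and 1 fell, 3 in all and 5 without Ponatinib replicate 1. PCK2, the mitochondrial carboxykinase that makes phosphoenolpyruvate, measured 18.9 and 18.4 CPM with DMSO and 65.0 and 68.8 CPM with Ponatinib (log2 fold change 1.84, edgeR adjusted p = 1.2e-09), and the phosphatase subunit PDP1, which opposes the PDK kinases, fell with a log2 fold change of -0.46 (adjusted p = 3.3e-04). Of 9 pentose phosphate genes 2 rose (TKT and PGD, log2 fold changes 0.32 and 0.23) and 2 fell (RPIA and PRPS1, -0.63 and -0.22), a count of 4 that was 1 without DMSO replicate 1. Of 10 genes of glycogen and UDP-glucose 3 rose and 1 fell, 4 in all and 2 without either DMSO replicate.

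In the shRNA experiment, TXNIP was the 1 member past 1.5-fold in the same direction in all 3 knockdown samples. The share of all genes that did so was not counted, so how unusual this is cannot be told. The 3 knockdown samples were set against the same shCtrl sample, so they are not independent of each other. With 1 sample a group there was no replicate check and no test was made. A fit over the 4 shRNA samples in which the effects of the ABL1 and ABL2 hairpins are assumed to add was not run. Ratios carry 95% exact (Clopper-Pearson) intervals that cover counting error only, and PCR reads without molecular identifiers are not independent molecules. TXNIP stood at 502 CPM in shCtrl, and at 321 CPM in the ABL1 shRNA sample, 226 in the ABL2 shRNA sample and 237 in the ABL1/ABL2 shRNA sample. The ratios to shCtrl were, in that order, 0.640 (0.615 to 0.667), 0.450 (0.430 to 0.470) and 0.472 (0.451 to 0.493). Each knockdown sample was thus below shCtrl, whereas both Ponatinib samples were above DMSO in the other experiment, where the log2 fold change was 1.45. The controls, scaled separately, stood at 502 CPM (shCtrl) and at 47.2 ± 5.31 CPM (DMSO, SD, n = 2). The opposite directions thus start from unlike levels, and the source of that difference was not tested. ARRDC4 stood at 10.2 CPM in shCtrl and at 3.85, 13.3 and 6.00 CPM in the knockdown samples in that order (116, 50, 168 and 73 counts). It was below shCtrl in both samples that carry ABL1 shRNA, with ratios of 0.378 (0.266 to 0.531) and 0.589 (0.433 to 0.796), and above it with ABL2 shRNA alone, at 1.31 (1.03 to 1.67).

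ABL1 shRNA had 7 of the 33 members past 1.5-fold (21.2%, against 23.8% of 15832 genes with enough counts). Of these, 6 were lower than in shCtrl (18.2% against 11.2% of all genes) and 1 was higher (12.6% of all genes), and 23 of the 33 lay below shCtrl. The median log2 ratio was -0.23 over the members and 0.006 over all genes. Beside TXNIP and ARRDC4 the lower genes were HK2 (75.4 to 49.6 CPM, ratio 0.658, 0.594 to 0.730), GPI (275 to 164 CPM, ratio 0.597, 0.565 to 0.631), ALDOC (55.5 to 29.7 CPM, ratio 0.534, 0.470 to 0.608) and PGAM1 (463 to 292 CPM, ratio 0.630, 0.604 to 0.657). The higher gene was SLC16A1, at 1.67 and 2.93 CPM on 19 and 38 counts, and its interval of 0.987 to 3.22 included no change. HK2 was just past the limit and fell short of it when CPM was taken on total counts. At 2-fold, ARRDC4 alone was past the limit, against 8.89% of all genes (4.87% higher and 4.02% lower). Of the 4 lactate genes, SLC16A1 was past the limit and 0 were past it downwards, with LDHB at 633 and 444 CPM (ratio 0.702, 0.678 to 0.727) and LDHA at 2561 and 2143 CPM (ratio 0.837, 0.823 to 0.850).

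ABL2 shRNA had 4 members past 1.5-fold (12.1%, against 19.8% of 15769 genes), and the median log2 ratio of the members was -0.0015, beside -0.0047 over all genes. TXNIP, SLC2A1 and SLC16A1 were lower (9.09% of the members, against 8.1% of all genes) and PDK3 was higher (11.7% of all genes). At 2-fold, TXNIP alone was past the limit, against 7.72% of all genes (4.65% higher and 3.07% lower). SLC2A1 stood at 301 CPM in shCtrl and 201 CPM with ABL2 shRNA, a ratio of 0.666 (0.633 to 0.702) that lies at the 1.5-fold limit and did not reach it under DESeq2's size factors. SLC16A1 rested on 19 and 12 counts (ratio 0.571, 0.253 to 1.24) and PDK3 on 60 and 108 (ratio 1.63, 1.18 to 2.27). TPI1 (971 to 1427 CPM, ratio 1.47, 1.43 to 1.51) and ENO2, the neuronal enolase (276 to 398 CPM, ratio 1.45, 1.38 to 1.51), were higher but within the limit.

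ABL1/ABL2 shRNA had 3 members past 1.5-fold (9.09%, against 21.1% of 15733 genes), all lower (9.47% of all genes, with 11.6% higher), and a median log2 ratio of -0.09 over the members and 0.0002 over all genes. These were TXNIP, ARRDC4 and SLC2A3, and at 2-fold TXNIP alone, against 7.74% of all genes (4.47% higher and 3.27% lower). SLC2A3 stood at 254 CPM in shCtrl and at 173, 199 and 151 CPM in the ABL1, ABL2 and ABL1/ABL2 shRNA samples, and the ratio for both was 0.593 (0.559 to 0.629). SLC2A3 was thus lower in each knockdown sample, while it was higher in both Ponatinib samples than in the DMSO pair. That pair, scaled separately, stood at 63.5 ± 2.77 CPM (SD, n = 2), so here too the controls were at unlike levels. All 4 genes of glucose entry and phosphorylation were below shCtrl in the double knockdown and in each single one, although the interval of HK2 with ABL2 shRNA (0.863 to 1.04) included 1. PFKFB3 (220 to 219 CPM, ratio 0.994, 0.941 to 1.05), SLC16A3 (473 to 487 CPM, ratio 1.03, 0.994 to 1.07) and PDK4 (14.4 to 14.8 CPM, ratio 1.03, 0.826 to 1.28) had intervals that included 1, beside log2 fold changes of -0.79, -0.63 and 1.37 with Ponatinib. HK2 was lower in the double knockdown (75.4 to 53.8 CPM, ratio 0.714, 0.644 to 0.792) as it was with Ponatinib. Of the 14 members called with Ponatinib, 7 had a double knockdown ratio in the same direction and 7 in the opposite one, a count given without a test of the difference.

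The most abundant isozymes of the steps differed from shCtrl by less than 1.5-fold in the knockdown samples, apart from SLC2A1 with ABL2 shRNA. In the order shCtrl, ABL1 shRNA, ABL2 shRNA and ABL1/ABL2 shRNA, SLC2A1 stood at 301, 261, 201 and 247 CPM and HK1 at 377, 295, 353 and 336 CPM, so both were highest in shCtrl. In the same order PFKP stood at 375, 391, 380.4 and 379 CPM, ALDOA at 909.6, 948, 985 and 979 CPM and PFKFB3 at 219.9, 199, 239 and 219 CPM. ENO1 stood at 2979.9, 2393, 2812 and 2627 CPM, LDHA at 2561, 2143, 2441 and 2157 CPM, LDHB at 633, 444, 632 and 501 CPM and SLC16A3 at 473, 376, 541 and 487 CPM. These 4 genes of the lower pathway were each lowest in the ABL1 shRNA sample. PDK2 stood at 25.1, 18.8, 23.99 and 23.7 CPM and was lowest in the ABL1 shRNA sample, where PDK1, at 48.1, 61.4, 52.3 and 45.5 CPM, was highest.

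**Figure D4:**
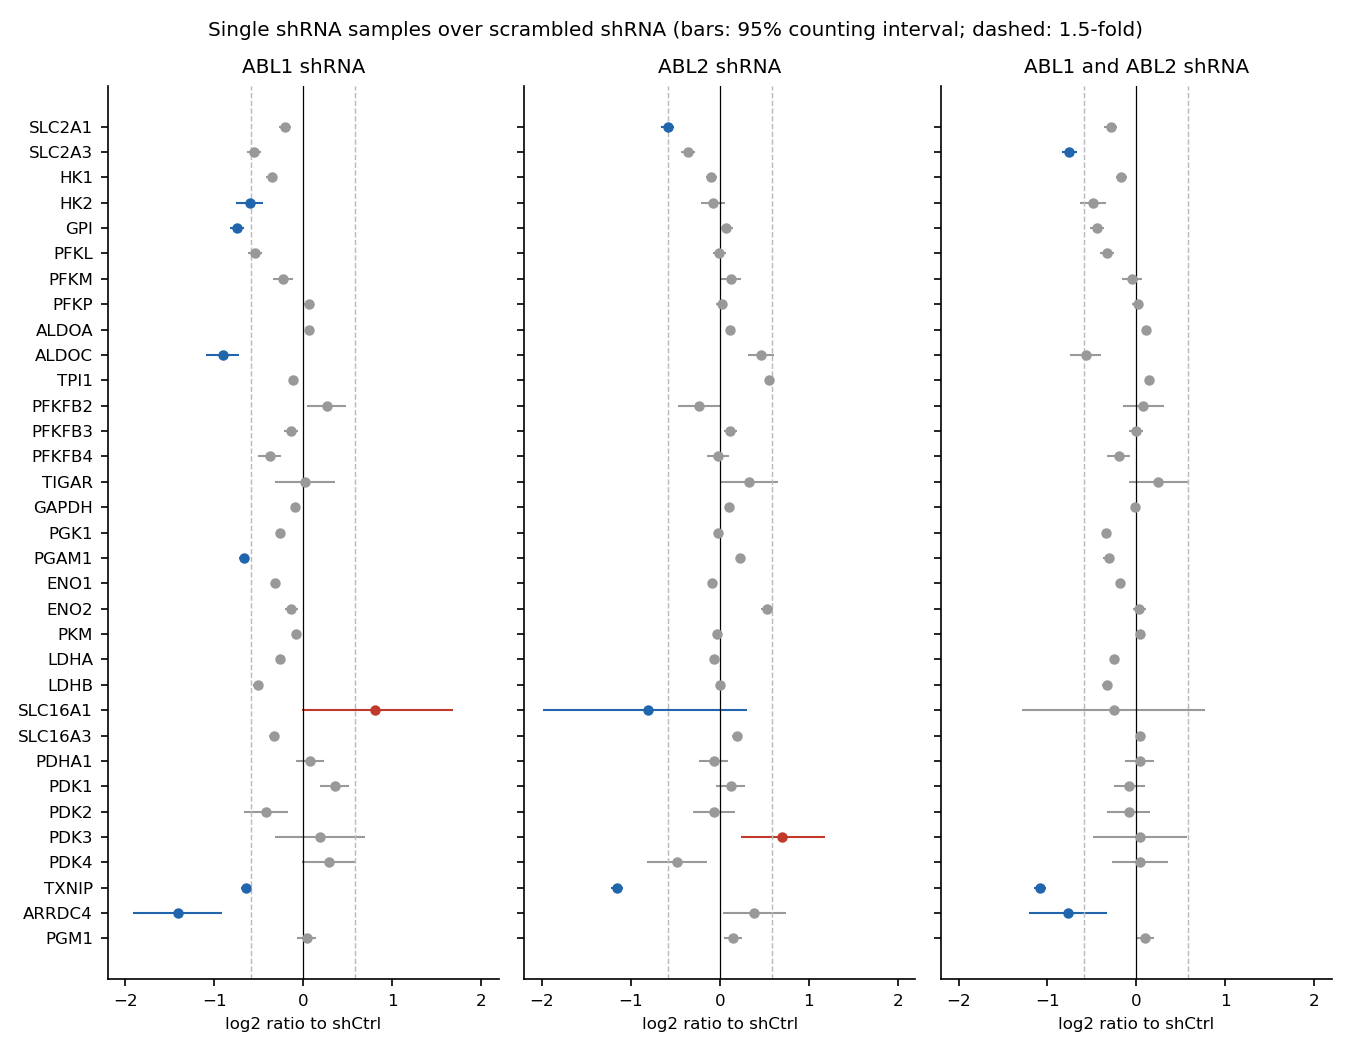
Log2 ratio of each member to shCtrl in the ABL1 shRNA, ABL2 shRNA and ABL1/ABL2 shRNA samples (1 each), with 95% counting intervals that hold no replicate error and dashed lines at 1.5-fold. TXNIP lies left of the dashed line in all 3 panels, at -0.64, -1.15 and -1.08, while most enzymes stay between the lines.

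Some members share sequence with many pseudogenes, which limits how exactly their reads were assigned. In the annotation, GAPDH has 65 pseudogenes, which held 7.22% of the counts of the gene and its pseudogenes over the 8 samples, and the shares were 5.61% for TPI1 and 5.47% for LDHA. Exons of other genes cover 33.4% of the exon bases of LDHB, 19.3% of those of PDHA1 and 17.6% of those of GAPDH. HK2 (1.72% on 1 pseudogene), PFKFB3, TXNIP, ARRDC4 and PDK4 had little or no such sharing.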

How the data were processed

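RNA from 8 samples of LM2 cells was sequenced (NEBNext Ultra libraries, an Illumina HiSeq instrument per the study's methods). According to the submitters' processing notes and the study's methods, the authors checked reads with FastQC, mapped them to hg38 with TopHat and counted them per gene with HTSeq 0.6.0, and they deposited raw counts, 1 file per sample, without normalization. The annotation release and strand setting are not given in the sources used here. The summary lines of the 4 shRNA files (9.48% to 9.90% of reads on no feature and 6.12% to 6.32% ambiguous) were left out of totals.

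The test of the 4 DMSO and Ponatinib samples used edgeR 4.0.16 under R 4.3.3 (TMM, filterByExpr, quasi-likelihood test, prior count 0.125), with Benjamini-Hochberg adjustment over 16031 genes. Knockdowns were single samples and were described by CPM ratios with exact intervals, for genes with at least 10 counts in 1 of the 2 samples. Lengths, positions, pseudogenes and overlaps came from a GENCODE annotation of GRCh38, which may not be the authors' release, and promoters from RefSeq tables. Members and lists were chosen with earlier results of these data known. Values per sample are given for members called with an absolute log2 fold change of at least 0.5 with Ponatinib, for those past 1.5-fold one way in all 3 knockdowns or past 2-fold in any, and for the top isozyme of each step, and related genes called with an absolute log2 fold change of at least 1 are named. Other members are named by role, and other related genes were chosen after their values were seen. Steps were tested on simulated data, and alternatives included DESeq2 1.42.0.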

Additional observations from a re-analysis of the deposited data

How the results depend on the processing

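The direction of every called member was kept in all 9 alternatives of the Ponatinib fit, and HK2, PFKFB3, SLC16A3, SLC2A1, PFKP, TXNIP, SLC16A1 and PDK4 passed the test in each of them. Leaving out 1 sample gave 8 to 19 members called (14 with all samples), 3 to 7 rising (5) and 5 to 14 falling (9), 2 to 5 of the pyruvate dehydrogenase list (3), 1 to 4 of the pentose phosphate list (4), 2 to 5 of the glycogen list (4) and 2800 to 5744 of all genes (4917), and the cause of these shifts was not tested. Counts differed more between the 2 Ponatinib samples than between the 2 DMSO samples, with a chi-square per degree of freedom of 3.12 against 1.44. DESeq2's Wald test called 3 members upwards and 2809 genes in all. The thresholds of the study, which ask for a fold over 2, left 4 members, 3 up and 1 down, and 878 genes in all. Of the related lists they left 2 of the other isozymes and relatives and 1 of the pyruvate dehydrogenase list. They also left 0 of the pentose phosphate list, 0 of the glycogen list, 3 HIF targets and 2 controllers. Repeat numbers shared by the DMSO and Ponatinib labels were not used to pair the samples in the main fit. Deviations of same-numbered samples had a correlation of 0.0158 across 10278 genes. That value cannot show that the samples were unpaired, since counting error can hide a shared effect. The edgeR fit with the replicate block gave 13 members called, ENO1 being lost (adjusted p = 0.0535). No paired analysis was possible for the knockdowns because each group has 1 sample. At 2-fold, 1 member each was past the limit with ABL1 shRNA, ABL2 shRNA and both, all lower, and 0 were higher. Asking for 100 counts in both samples left 0 higher members with ABL1 shRNA, and 2 in all and 0 higher with ABL2 shRNA, and CPM on total counts put 2 members higher with ABL2 shRNA, PDK3 and TPI1. Depth limits SLC16A1, PDK4 and ARRDC4, with 15 to 56 counts per DMSO or Ponatinib sample.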

Other observations

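Outside the members, values are given here for several genes of neighbouring pathways in the shRNA experiment, picked after they were seen. Each group there is 1 sample and the 3 knockdowns share the shCtrl sample, so no test was made. RPIA, the isomerase of the pentose phosphate pathway that makes ribose 5-phosphate, was at 21.8 CPM in shCtrl and at 11.3, 5.88 and 9.70 CPM in the ABL1, ABL2 and ABL1/ABL2 shRNA samples. It was below shCtrl in each knockdown sample and, in the other experiment, lower in both Ponatinib samples than in both DMSO samples. Of the 9 pentose phosphate genes, the number past 1.5-fold and lower was 2 in the ABL1 shRNA sample (22.2%, against 11.2% of all genes), 1 in the ABL2 shRNA sample (11.1% against 8.1%) and 2 in the double knockdown (22.2% against 9.47%), and with so few genes nothing is read from these counts.

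Of 20 HIF targets outside glycolysis, 15.0% were past 1.5-fold either way with ABL1 shRNA, against 23.8% of all genes. With ABL2 shRNA the share was 25.0% against 19.8%, and with both 15.0% against 21.1%. ADM and MXI1, a MAX partner that opposes MYC, were lower than shCtrl by more than 1.5-fold in all 3 knockdown samples. The share of all genes that were so was not counted. ADM stood at 244 CPM in shCtrl and at 132, 107 and 110.0 CPM in the knockdown samples in the same order. MXI1 stood at 97.6 CPM in shCtrl and at 38.6, 62.9 and 39.1 CPM in them, while it rose with Ponatinib from 13.6 and 13.5 CPM to 23.99 and 30.9 CPM (edgeR adjusted p = 5.2e-05). LOX was lower in the samples that carry ABL1 shRNA, at 90.1 CPM alone and 94.1 CPM with both against 193 CPM in shCtrl, and stood at 159 CPM with ABL2 shRNA. The carbonic anhydrases CA9 and CA12, which export acid, were higher with ABL2 shRNA, CA9 at 52.1 CPM against 16.8 CPM and CA12 at 274 CPM against 102 CPM in shCtrl.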
